A study of Mus musculus with 18 samples.

Results

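This account covers 9 transcription factor genes in mouse liver, 4 of the C/EBP family (Cebpa, Cebpb, Cebpd and Cebpg) and 5 of the Kruppel-like family (Klf6, Klf9, Klf10, Klf13 and Klf15), out of 18946 genes in the deposited table. They were found by symbol, and all 9 were present and passed the filter on low values. Their Ensembl identifiers in the table are ENSMUSG00000034957 (Cebpa), ENSMUSG00000056501 (Cebpb), ENSMUSG00000071637 (Cebpd), ENSMUSG00000056216 (Cebpg), ENSMUSG00000000078 (Klf6), ENSMUSG00000033863 (Klf9), ENSMUSG00000037465 (Klf10), ENSMUSG00000052040 (Klf13) and ENSMUSG00000030087 (Klf15). The 9 genes were chosen by earlier results of these same libraries on age, so that their differences between Old and Young mice are given here as a description, and calls on them support nothing. Bulk RNA sequencing was done on livers of 10 Old mice (19.76 months) and 8 Young mice (6.18 months), all male C57BL/6J, an inbred strain, and other label fields give slightly different ages for the Old mice. Every mouse had fasted overnight and was killed after a hyperinsulinemic-euglycemic clamp, an infusion of insulin with enough glucose to keep blood glucose steady, so that both groups were insulin-stimulated and livers without infused insulin were not part of the design. Each library is a separate animal. The labelled glucose infusion rate of the clamp was lower in every Old mouse than in every Young mouse. Old mice weighed 35.1 to 55 g at the clamp and Young mice 26.6 to 34.8 g. Age cannot be told apart from either difference here.

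C/EBP proteins are leucine zipper factors that bind DNA in pairs and switch on the genes of mature hepatocytes, of the acute phase response and of glucose production. Kruppel-like factors bind GC-rich DNA through zinc fingers, and several of them carry glucocorticoid, feeding or growth factor signals in the liver. In hepatocytes, glucagon acting through cAMP induces Cebpb, and fasting and glucocorticoids induce Klf15 and Klf9, whereas insulin restrains glucose production.

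RefSeq promoter windows on GRCm38.p6, from 250 bases before to 50 bases after the annotated start, were found for 7 of the 9 genes; Cebpd and Klf10 had no entry. The windows of Cebpb (chr2:167688665-167688964), Klf9 (chr19:23140976-23141275), Klf15 (chr6:90462326-90462625) and Klf6 (chr13:5861239-5861538), all on the plus strand, are shown because Cebpb and Klf15 are known responders to fasting signals and Klf9 and Klf6 are the Kruppel-like genes whose Old and Young livers stood apart. Capitals mark the E-box CACGTG and the cAMP response element core TGACG, read on either strand (as CGTCA on the other), and in Klf15 a CGTCA overlaps a CACGTG.
Cebpb: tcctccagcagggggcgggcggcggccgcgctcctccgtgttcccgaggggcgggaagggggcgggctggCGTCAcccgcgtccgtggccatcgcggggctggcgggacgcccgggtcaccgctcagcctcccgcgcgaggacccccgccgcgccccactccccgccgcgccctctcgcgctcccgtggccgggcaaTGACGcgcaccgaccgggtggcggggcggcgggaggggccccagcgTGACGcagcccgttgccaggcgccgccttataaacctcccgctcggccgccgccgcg
Klf9: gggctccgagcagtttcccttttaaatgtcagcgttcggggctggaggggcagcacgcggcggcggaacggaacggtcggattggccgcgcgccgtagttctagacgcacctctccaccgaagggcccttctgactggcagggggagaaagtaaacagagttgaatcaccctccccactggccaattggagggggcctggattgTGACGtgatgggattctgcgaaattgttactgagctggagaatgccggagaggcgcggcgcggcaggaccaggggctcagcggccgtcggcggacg
Klf15: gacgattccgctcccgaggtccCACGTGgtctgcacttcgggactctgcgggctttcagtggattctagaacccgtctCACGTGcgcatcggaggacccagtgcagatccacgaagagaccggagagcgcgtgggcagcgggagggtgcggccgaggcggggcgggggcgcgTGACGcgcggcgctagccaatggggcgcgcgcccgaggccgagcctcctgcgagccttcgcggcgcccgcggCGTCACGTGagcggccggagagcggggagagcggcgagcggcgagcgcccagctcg
Klf6: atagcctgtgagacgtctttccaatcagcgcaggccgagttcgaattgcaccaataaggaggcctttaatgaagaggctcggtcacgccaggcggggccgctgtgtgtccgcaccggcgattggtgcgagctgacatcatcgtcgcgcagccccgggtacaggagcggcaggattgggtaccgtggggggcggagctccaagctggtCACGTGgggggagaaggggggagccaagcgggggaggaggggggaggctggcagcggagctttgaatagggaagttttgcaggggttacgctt

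The Cebpb window held 3 TGACG cores, that of Klf15 held 2, and those of Klf9 and Klf13 held 1 each. A core was present in 20.8% of all 32851 windows, and 3 or more in 1.03%. The Klf15 window also held 3 E-boxes and that of Klf6 held 1, against 7.15% of all windows with any E-box and 0.0883% with 3 or more. GC boxes (GGGCGG, either strand, in 35.7% of all windows), to which Kruppel-like and Sp proteins bind, numbered 5 in Cebpb, 3 in Klf13, 1 each in Cebpg, Klf6 and Klf15 and 0 in Cebpa and Klf9. A CCAAT box (CCAAT, either strand, 37.4% of windows) was present 4 times in Klf6, 3 times in Klf9, 2 times each in Cebpg and Klf13 and 1 time in Klf15. TATAAA occurred 1 time each in Cebpa and Cebpb (13.6% of windows), and none of the 7 windows held the C/EBP core TTGCNNAA (10.8% of windows). These matches describe letters in a window and not bound sites.

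Levels are in scaled TPM, that is deposited TPM, a measure per gene length, divided by a factor for each library from a trimmed mean of log ratios. Recovered reads per library came to 90081467 to 127000035 in Old and 85790735 to 127487820 in Young mice. Old replicate 14 stood apart: its log2 profile correlated at 0.948 with the median profile of its age, against 0.981 to 0.995 in the other 17 libraries, and values that move with it are also given without it. The AllPrep kit had been used for the RNA of 5 Old and 3 Young mice, and the RNeasy kit for that of 5 Old and 5 Young mice. The markers of hepatocytes (Alb, Apoa1, Ttr and 5 others) summed to 96715 to 142948 scaled TPM in Old and 93210 to 130217 in Young livers, and 0 of the 8 were at 0 in any library.

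The 9 factors spanned a wide range of levels. Cebpa, which maintains hepatocyte identity, was the highest with a median of 251.6 scaled TPM over the 18 libraries, and it exceeded Cebpb in all 18. Cebpb (81.3) and Klf9 (61.7) came next, and Cebpb was above Klf9 in 5 of 10 Old and 8 of 8 Young livers. Klf15 (27.0) and Cebpg (25.9) could not be ordered, since Klf15 was the higher in 3 of 10 Old and 7 of 8 Young livers. Klf13 (20.0) and Klf10 (14.6) likewise exchanged places, with Klf13 above Klf10 in 4 of 10 Old and 8 of 8 Young livers. Klf6 (7.26) was below Klf10 in all 18 libraries and above Cebpd (3.80), the lowest of the 9, in 10 of 10 Old and 5 of 8 Young livers.

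**Figure D1:**
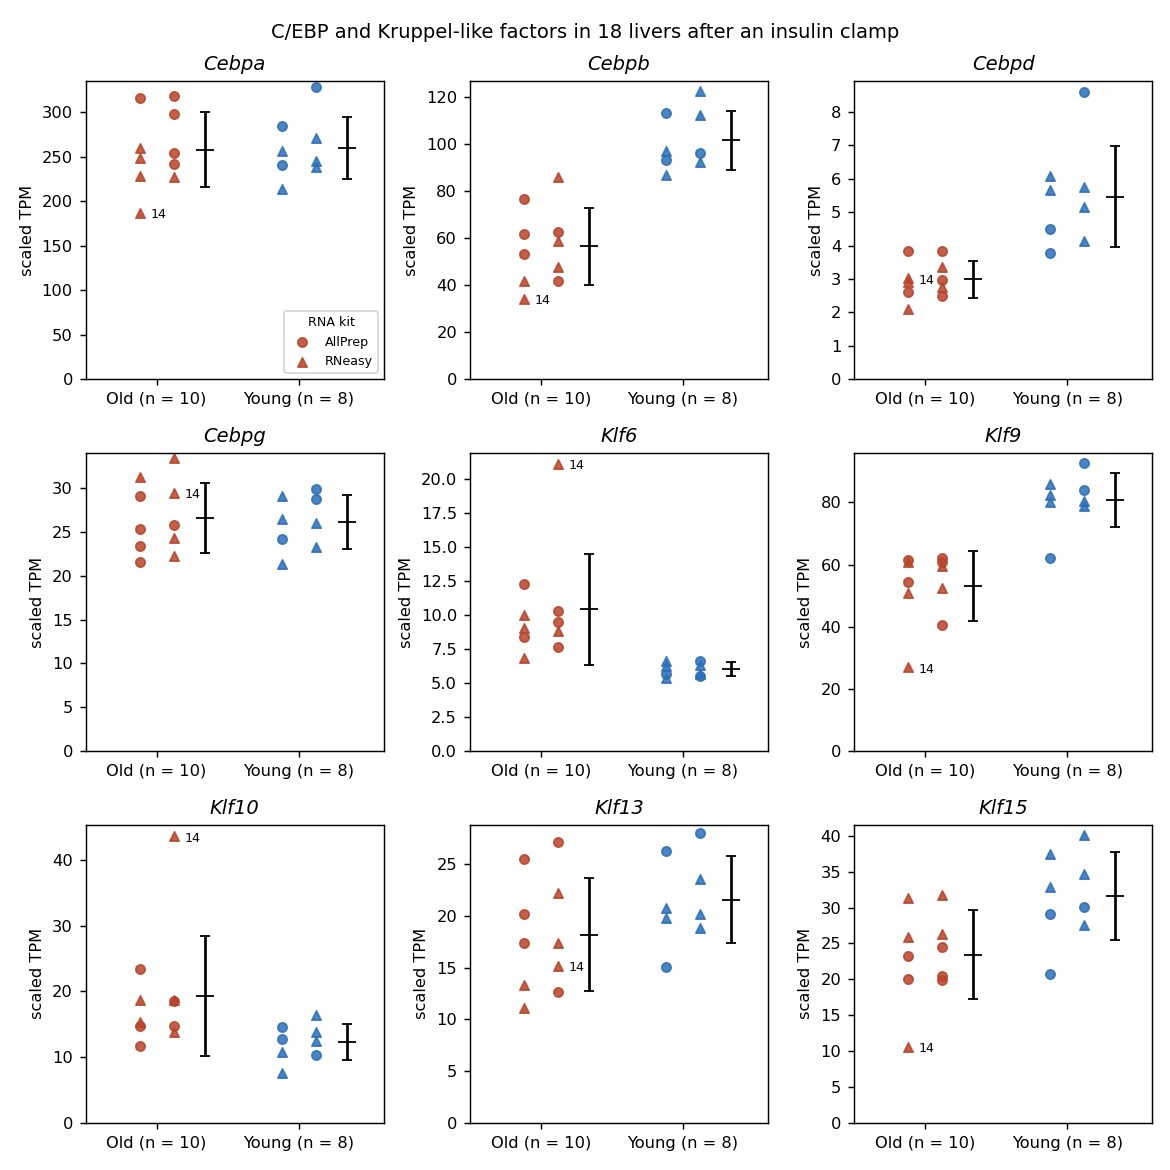
Scaled TPM of each factor in every liver, with Old mice (n = 10) left of Young mice (n = 8), circles for AllPrep and triangles for RNeasy libraries, and the mean ± SD beside the points. The Old and Young points of Cebpb, Klf6 and Klf9 do not overlap, those of Cebpa and Cebpg cover the same range, and the points marked 14 are Old replicate 14, which is highest for Klf6 and Klf10 and lowest for Cebpa, Cebpb, Klf9 and Klf15.

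Of the 9 factors, 1 was higher (Klf6) and 3 were lower (Cebpb, Cebpd and Klf9) in Old livers at an adjusted p under 0.05 in a limma model with terms for age and kit, against 2.52% of all 13895 tested genes called higher and 2.36% called lower. The count was again 1 higher and 3 lower without Old replicate 14, but all of these calls were lost in either kit alone. Because the choice of genes drew on this contrast, nothing is read from either count. In bulk tissue, fewer cells of a type and less RNA per cell cannot be told apart.

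Cebpb, the C/EBP gene induced by cAMP and cytokines, ranged from 34.2 through a median of 56.0 to 86.1 scaled TPM in Old livers, and from 86.8 through 96.5 to 122.3 in Young livers. All 10 Old livers lay below all 8 Young livers, with Old replicate 16 just under the lowest Young value and Old replicate 14 at the bottom. The means were 56.5 ± 16.2 in Old (SD, n = 10) and 101.6 ± 12.5 in Young (SD, n = 8), a log2 fold of -0.90 ± 0.15 (SE). With AllPrep the means were 59.2 ± 12.9 in Old (n = 5) and 100.7 ± 10.7 in Young (n = 3), and with RNeasy 53.7 ± 20.2 in Old and 102.2 ± 14.7 in Young (n = 5 each).

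Cebpd, an acute phase regulator that shares inducers with Cebpb, ranged from 2.11 through 2.94 to 3.84 scaled TPM in Old livers and from 3.77 through 5.40 to 8.60 in Young livers. Of the 10 Old livers, 8 lay below every Young liver, and the remaining Old livers, replicates 5 and 8, overlapped only the lowest Young one. Its means were 2.99 ± 0.556 in Old (n = 10) and 5.46 ± 1.51 in Young (n = 8), with a log2 fold of -0.76 ± 0.13 (SE). Although it was the lowest of the 9, each value rested on 253 to 937 reads.

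Cebpa and Cebpg did not share this difference. Cebpa ranged from 186.8 through 251.6 to 318.2 scaled TPM in Old and from 213.5 through 250.5 to 327.7 in Young livers, a log2 fold of -0.05 ± 0.08 (SE, 95% interval -0.23 to 0.12). Cebpg, which lacks an activation domain of its own and pairs with other C/EBP proteins and with ATF4, ranged from 21.6 through 25.6 to 33.4 in Old and from 21.3 through 26.3 to 29.9 in Young livers (0.02 ± 0.09, 95% interval -0.17 to 0.22). The groups of both genes overlapped almost entirely. The ratio of Cebpb to Cebpa was 0.132 through 0.209 to 0.380 in Old and 0.293 through 0.401 to 0.513 in Young livers, and 8 of 10 Old livers had a lower ratio than every Young liver.

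Klf6, an early response gene induced by growth factors and injury, was higher in Old livers. It ranged from 6.86 through 9.28 to 21.1 scaled TPM in Old livers and from 5.41 through 5.96 to 6.64 in Young livers. All 10 Old livers lay above all 8 Young livers, and Old replicate 14 was far above the second highest Old liver at 12.3. The means were 10.4 ± 4.06 in Old (n = 10) and 6.01 ± 0.514 in Young (n = 8), and the log2 fold was 0.69 ± 0.15 (SE). Without Old replicate 14 the Old mean was 9.22 ± 1.59 (n = 9) and the log2 fold 0.55.

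Klf9, which glucocorticoids and thyroid hormone induce, ranged from 27.0 through 57.0 to 62.0 scaled TPM in Old livers and from 62.1 through 81.4 to 92.6 in Young livers. The groups touched without overlapping, since the highest Old liver (replicate 8) had 62.03 and the lowest Young liver (replicate 1) 62.08, and the other 7 Young livers stood at 78.8 or above. Its means were 53.0 ± 11.3 in Old (n = 10) and 80.8 ± 8.74 in Young (n = 8), a log2 fold of -0.64 ± 0.14 (SE), or -0.52 without Old replicate 14.

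Groups without overlap were found for 31 of the 13895 genes in the lower direction (0.223%), among them Cebpb and Klf9, and for 29 in the higher direction (0.209%), among them Klf6. This separation depended on scaling. It was the same with median-of-ratios factors, whereas with no composition factor 9 Old livers were below every Young liver for Cebpb, 9 were above for Klf6 and 4 were below for Klf9, so that 0 of the 9 genes separated fully.

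Klf10, known as an early target of TGF-beta and as a factor that answers to glucose in the liver, ranged from 11.6 through 17.0 to 43.6 scaled TPM in Old and from 7.58 through 12.5 to 16.4 in Young livers. Of the 10 Old livers, 5 were above every Young liver and 9 were above the Young median, and Old replicate 14 stood far above the next Old liver at 23.5. The log2 fold was 0.58 ± 0.20 (SE) with all libraries and 0.42 without Old replicate 14.

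Klf15, which drives amino acid breakdown for glucose production in fasting, ranged from 10.6 through 23.8 to 31.7 scaled TPM in Old and from 20.8 through 31.5 to 40.1 in Young livers. The groups overlapped, with 9 of 10 Old livers below the Young median. Its log2 fold was -0.42 ± 0.17 (SE) with all libraries and -0.27 without Old replicate 14. Klf13, a close relative of Klf9, ranged from 11.1 through 17.4 to 27.2 in Old and from 15.1 through 20.5 to 28.0 in Young livers, with a log2 fold of -0.30 ± 0.16 (SE) and overlapping groups. The ratio of Klf9 to Klf13 was 1.77 through 3.02 to 5.46 in Old and 3.20 through 3.91 to 4.27 in Young livers. Of the 10 Old livers, 7 had a lower ratio than every Young liver, while the highest Old ratio, that of replicate 17, exceeded every Young one.

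**Figure D2:**
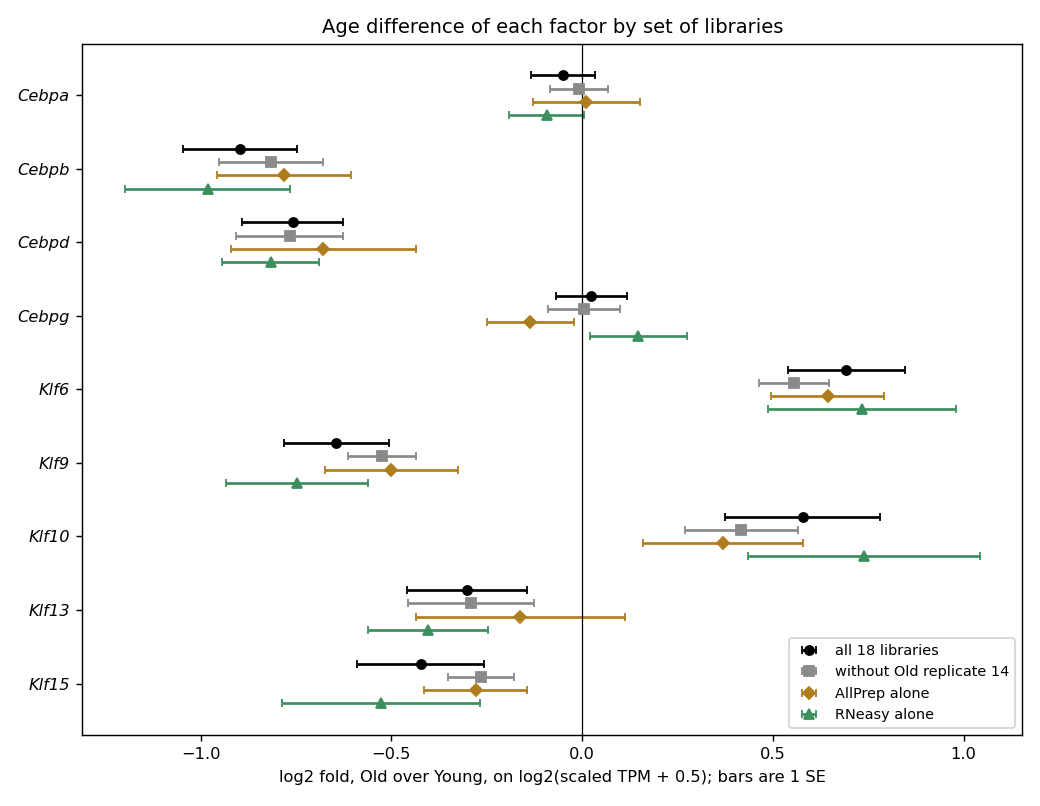
Log2 fold of each factor, Old over Young, on log2(scaled TPM + 0.5) with 1 SE to each side, for all 18 libraries, without Old replicate 14, and within each kit. The folds of Cebpb, Cebpd, Klf9, Klf13 and Klf15 lie below 0 and those of Klf6 and Klf10 above 0 in all 4 sets of libraries, whereas Cebpg is -0.14 within AllPrep and 0.15 within RNeasy.

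Within AllPrep libraries alone and within RNeasy libraries alone, the log2 folds were -0.78 and -0.98 for Cebpb, -0.68 and -0.82 for Cebpd, 0.64 and 0.73 for Klf6, and -0.50 and -0.75 for Klf9. No call on these factors held in either kit alone. In RNeasy libraries without Old replicate 14 the log2 folds were -0.85 for Cebpb, -0.85 for Cebpd, 0.47 for Klf6 and -0.55 for Klf9. In that set Cebpd and Klf9 were called, and Cebpb and Klf6 were not. A term for age by kit interaction called 0 of 13895 genes (0%) in limma, with 580 at an unadjusted p under 0.05, and the adjusted p of the 9 factors was 0.972 to 0.991.

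The kit itself was not used to choose the genes. Between kits, 2469 of the 13895 tested genes differed (17.8%), 602 higher and 1867 lower with AllPrep, and 1 of the 9 factors was among them. Cebpa averaged 285.4 ± 35.6 in Old (n = 5) and 284.2 ± 43.6 in Young livers (n = 3) with AllPrep, and 229.9 ± 27.7 in Old and 244.8 ± 21.4 in Young livers (n = 5 each) with RNeasy. Its log2 fold of AllPrep over RNeasy was 0.27 ± 0.08 (SE, limma adjusted p = 0.0329), a call that was lost with no composition factor (0.15, adjusted p = 0.239) and in 7 of 18 fits that left out 1 library (Old replicates 7, 8, 16, 17 and 18, and Young replicates 11 and 13). Klf15 was not called with all libraries (-0.23 ± 0.17), but it was lower with AllPrep without Old replicate 14 (-0.39, limma adjusted p = 0.00336). The kit differences of the other 7 factors lay between -0.14 and 0.25 on the log2 scale and were not called.

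The labels give traits of the same mice, which were not used to choose the genes. Insulin suppressed glucose production by 25.4 to 68.4% in Old and 68.4 to 92% in Young mice, so slopes were fitted within age, per SD of the trait. Across 13895 genes, limma called 0 slopes on suppression of glucose production (0%, with 1248 at an unadjusted p under 0.05), 0 on insulin during the clamp (0%, 234) and 0 on liver glycogen (0%, 413), and hence none of the 9 factors. The steepest slope of a factor on suppression was that of Klf9, which was lower by 0.15 ± 0.07 (SE) on the log2 scale per 12.4 percentage points of suppression (unadjusted p = 0.0337, limma adjusted p = 0.553). Klf15 followed at -0.13 ± 0.08 and Klf10 at 0.11 ± 0.11. These slopes moved with Old replicate 14: without it Klf9 had -0.08 ± 0.04 (limma adjusted p = 0.723), Klf15 -0.03 and Klf10 0.01, and Cebpg was as steep as Klf9 at -0.08. On clamp insulin, Klf10 had -0.16 ± 0.10 and Cebpb 0.13 ± 0.07, or -0.07 and 0.08 without that library. On liver glycogen all 9 slopes lay between -0.07 and 0.06. The 95% intervals of all 27 slopes except that of Klf9 on suppression included 0 with all 18 libraries.

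**Figure D3:**
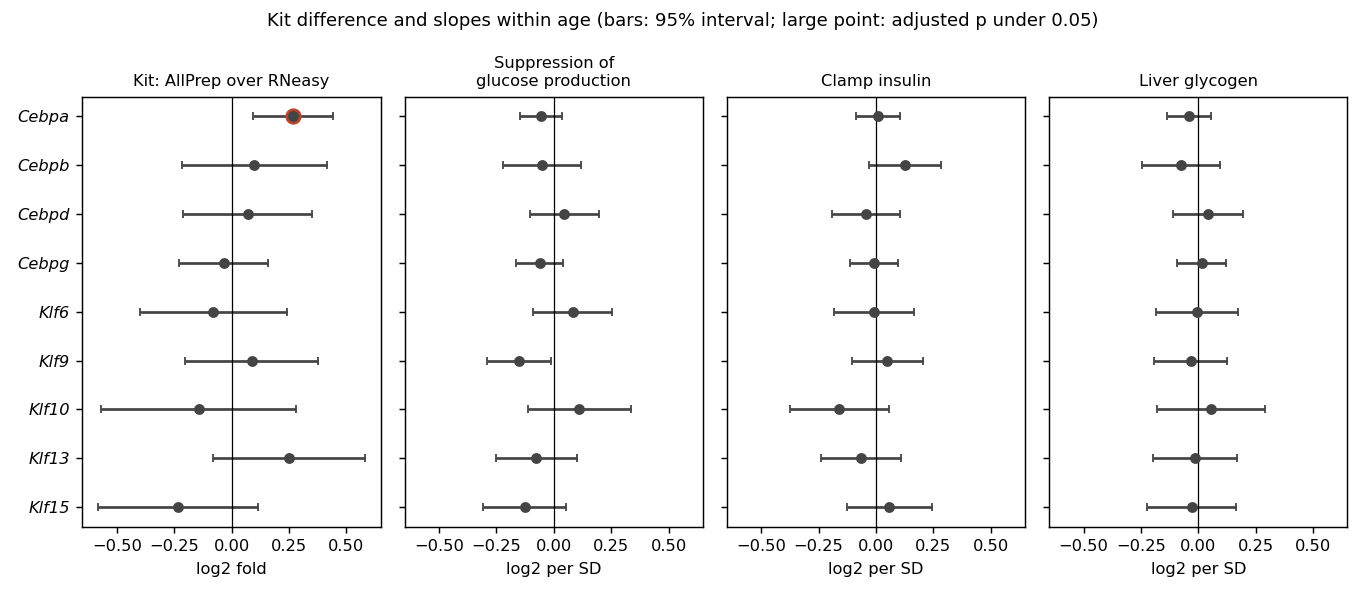
Kit difference (log2 fold, AllPrep over RNeasy) and slopes within age on 3 traits (log2 per SD of the trait) for each factor, from 18 livers, with 95% intervals. The enlarged point marks the only adjusted p under 0.05, that of Cebpa in the kit comparison at 0.27.

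Within age and kit, the factors varied together in part. As a description over 18 livers, which share library composition and the scaling, the deviations of Cebpa from the means of age and kit had Pearson's r of 0.73 with Klf9 and 0.63 with Klf13, and -0.68 with Klf6 and -0.66 with Klf10. Without Old replicate 14 these values were 0.62, 0.69, -0.54 and -0.49. Several other pairs rested on that library to a large extent: Klf6 with Klf15 had -0.73 with it and 0.02 without it, Klf6 with Klf9 -0.69 and -0.06, and Klf9 with Klf15 0.66 and -0.17. Klf9 with Klf10 had -0.78 with it and -0.49 without it. Klf10 with Klf15 changed sign, at -0.46 with it and 0.55 without it, as did Cebpb with Klf9, at 0.13 and -0.55. Cebpb and Cebpd, the pair that was lower in Old livers, had a weak r of 0.34, or 0.43 without Old replicate 14, and Klf9 with Klf13 had 0.49, or 0.75 without it.

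**Figure D4:**
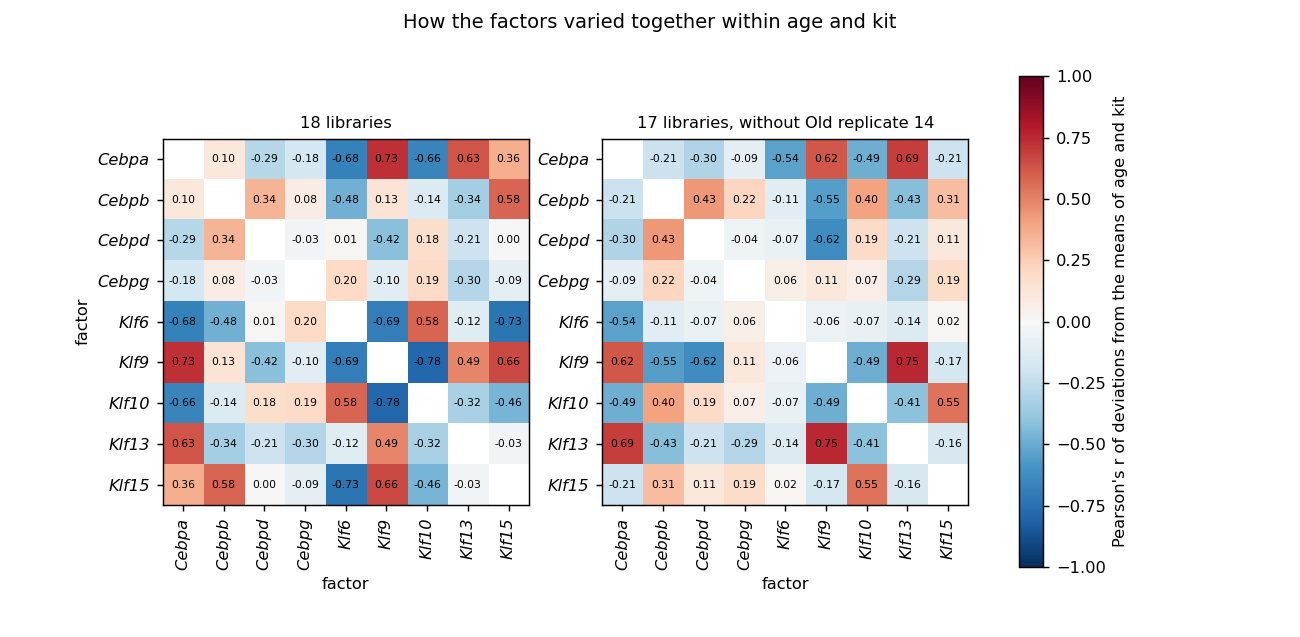
Pearson's r between the factors' deviations from the means of age and kit, over all 18 livers (left) and 17 livers without Old replicate 14 (right), with red for positive and blue for negative r. The block of Klf6 with Klf9 and Klf15 is strongly coloured on the left (-0.69 and -0.73) and pale on the right (-0.06 and 0.02), whereas Cebpa with Klf9 and Klf13 is red on both sides.

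The genes whose deviations were most like those of each factor, among tested genes whose mean level was 2 or more on the log2 scale, differed from factor to factor. For Cebpb they were Zfp707 (r = 0.89), Gadd45g (0.87), a growth arrest and DNA damage gene, and Pim3 (0.84), a serine/threonine kinase, with 0.79 to 0.84 without Old replicate 14. For Klf6 they were Ywhah (0.91), Ralb (0.90) and Lpl (0.90), lipoprotein lipase, but only 0.63 to 0.70 without Old replicate 14. For Klf9, Ankrd33b, C1s1 and Galnt4 had 0.94 each, and 0.85 to 0.88 without it. For Cebpa they were Nfic (0.89), a nuclear factor I gene, Pgm1 (0.88), which interconverts glucose phosphates, and Asgr2 (0.87), a hepatocyte receptor subunit. Klf10 was most like Unk (0.87), Igfbp1 (0.81), which insulin represses, and Srxn1 (0.80), an antioxidant enzyme, with 0.79 for Unk, 0.65 for Igfbp1 and 0.51 for Srxn1 without Old replicate 14. For Klf15 they were Rab5b (0.94), Rbl2 (0.94) and Ces1b (0.93), with 0.66 to 0.72 without Old replicate 14. Klf13 had Nfatc1 (0.89), Plekhg6 (0.89) and Mllt6 (0.87), Cebpg had Crk (0.89), Aftph (0.88) and Ppp4r2 (0.84), and Cebpd had Snrnp40 (0.81), Ccnq (0.81) and 2410006H16Rik (0.79). Each r is over 18 livers. The named genes were picked as the highest of all genes compared, which by itself favours a high r, so they are a description only. Values without Old replicate 14 are for genes picked with it included.

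Relatives of these factors that are not among the 9 were measured as well. This list and all lists below were drawn up with earlier results of these same libraries known. Calls by age on their genes are therefore given as a description, and nothing is read from their counts. Of 6 other C/EBP genes and leucine zipper partners, 1 was higher in Old livers and 0 lower, with a median log2 fold of -0.01, against 0.01 over all tested genes. The gene that rose was Ddit3, a stress-induced partner that blocks C/EBP binding, with 6.79 ± 3.17 scaled TPM in Old and 4.53 ± 0.912 in Young livers (SD, n = 10 and 8, log2 fold 0.53 ± 0.14, limma adjusted p = 0.0391). Its call was lost without the kit term (0.45, adjusted p = 0.23), in either kit alone and in 11 of 18 fits that left out 1 library. Of 8 other Kruppel-like genes tested, 0 passed in limma in either direction (median -0.17). The smallest p among them was that of Klf16, at 4.11 ± 0.691 in Old and 5.06 ± 0.674 in Young livers (-0.29 ± 0.09, limma adjusted p = 0.0651), which passed without Old replicate 14 (-0.32, 0.0413), and the next was that of Klf3, at 33.4 ± 3.94 in Old and 37.8 ± 3.32 in Young livers (-0.19, 0.136). Klf5 was too low to be tested, and Klf8, Klf14 and Klf17 had no row under these symbols in the deposited table. Of the 5 Sp factors tested, which bind the same GC-rich sites, 0 passed in limma (median -0.05). Sp5 was nearest at 1.10 ± 0.389 in Old and 1.71 ± 0.339 in Young livers (-0.51, limma adjusted p = 0.0907, or -0.35 and 0.0426 without Old replicate 14), followed by Sp4 (-0.06, 0.71).

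Genes that C/EBP and Kruppel-like factors are known to act on, or that lie upstream of them, were counted by list, beside the 2.52% called higher and 2.36% called lower over all tested genes. Of 10 liver genes bound by C/EBP proteins, 0 rose and 1 fell, and the median of their log2 folds was -0.32. That gene was Pck1, the first committed enzyme of glucose production, with 2926 ± 871 scaled TPM in Old and 5505 ± 704 in Young livers (-0.98 ± 0.21, limma adjusted p = 0.0142), and Tat, an amino acid transaminase, joined it without Old replicate 14 (-0.61, 0.00272). Pck1 was also the only one of 6 genes repressed by insulin to pass (0 higher and 1 lower, median -0.48). In that list Pdk4 alone had a positive log2 fold, at 0.89 ± 0.35 (SE, limma adjusted p = 0.135). Of 10 acute phase genes 0 passed in limma (median 0.23), and those with the smallest p were Orm3 (0.97, limma adjusted p = 0.154) and Cp (0.37, 0.199). Their sums spread widely within each age, from 8408 to 47304 scaled TPM in Old and 8500 to 59336 in Young livers. Saa1 had a log2 fold of 0.01 ± 1.37 (SE), so its lack of a call does not show equal levels. Of 7 genes of the cytokine inputs to Cebpb and Cebpd, 0 rose and 1 fell (median 0.06). That gene was Socs3, a feedback inhibitor induced by STAT3, at 12.6 ± 6.52 in Old and 38.6 ± 8.26 in Young livers (-1.67 ± 0.25, limma adjusted p = 0.00254).

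Of 9 amino acid catabolism genes, among which Klf15 has known targets, 0 rose and 1 fell, with a median of -0.33. Got1, the cytosolic aspartate transaminase, had 163.5 ± 74.9 in Old and 258.8 ± 20.7 in Young livers (-0.78 ± 0.21, limma adjusted p = 0.0401), a call lost in 13 of 18 fits that left out 1 library. Of 12 glucocorticoid-responsive genes, 0 rose and 2 fell (median -0.43). They were Per1, a clock gene, at 5.04 ± 2.59 in Old and 13.3 ± 5.58 in Young livers (-1.23 ± 0.22, limma adjusted p = 0.00582), and Errfi1, a feedback inhibitor of the EGF receptor, at 496.6 ± 168 in Old and 916.2 ± 125 in Young livers (-0.95 ± 0.18, 0.00762). Without Old replicate 14 the kinase gene Sgk1 passed as well (-0.76, limma adjusted p = 0.0366). Of 12 clock genes, 0 rose and 1 fell, which was again Per1 (median -0.24). In each kit alone Pck1, Socs3, Got1, Per1 and Errfi1 had the same direction but were not called. Of 8 TGF-beta signalling genes 0 passed in limma (median -0.06), with Smad3 at 0.20 (limma adjusted p = 0.15) and Tgfb1 at 0.31 (0.237).

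Markers of other liver cells were set beside these values. The 9 Kupffer cell and macrophage markers summed to 243.9 to 819.8 scaled TPM in Old and 263.4 to 575.4 in Young livers, with 0 called in limma, a median log2 fold of 0.23 and the smallest p for Adgre1 (0.61, limma adjusted p = 0.0634) and Cd68 (0.50, 0.123). Adgre1 passed in 3 of 18 fits that left out 1 library (Old replicates 6 and 17 and Young replicate 3). In the same list, Timd4 (-0.35) and Marco (-0.43) had negative log2 folds. Clec4f was at 0.02, C1qa at 0.20, Csf1r at 0.23, Vsig4 at 0.26 and Cd5l at 0.29. Neutrophil markers, of which 4 were tested and 0 called in limma, summed to 8.95 to 96.0 in Old and 4.82 to 31.7 in Young livers, and the granule genes Mpo and Ngp, which were too low to be tested, were at 0 in some libraries. B and plasma cell markers had 1 of 5 higher, Jchain (1.44 ± 0.34, limma adjusted p = 0.0229, not called in RNeasy libraries alone or without Young replicate 10), and summed to 6.18 to 31.1 in Old and 3.41 to 8.13 in Young livers. Stellate cell markers summed to 187.1 to 326.7 in Old and 181.2 to 276.7 in Young livers (0 of 8 called, median 0.18, with Pdgfrb called in AllPrep libraries alone and without Old replicate 16), and endothelial markers to 113.8 to 185.9 in Old and 116.5 to 166.3 in Young livers (0 of 7 called, median -0.05). Hepatocyte markers (0 of 8 called, median -0.06), cholangiocyte markers (0 of 4, -0.19) and T and NK cell markers (0 of 4, 0.23) gave 0 calls in limma as well. Single hepatocyte and cholangiocyte markers went both ways. Alb had a log2 fold of 0.28 ± 0.21 (SE) and Serpina1c -0.31 ± 0.16. Cyp2e1 had -0.66 ± 0.31, or -0.74 to -0.35 in fits that left out 1 library. Sox9 had 0.44 ± 0.16 and Epcam, a low gene, -0.38 ± 0.14. Old replicate 14 had the highest sums of B and plasma cell, endothelial, hepatocyte and cholangiocyte markers, and without it the Old livers reached 20.8, 147.7, 133739 and 69.9 in that order. Alb alone averaged 85384 scaled TPM in Old livers, where the median hepatocyte sum was 122405. That sum therefore says little about the other hepatocyte markers. The part of other cells in the levels of Klf6, Cebpb, Cebpd and Klf9 was not tested.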

How the data were processed

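Bulk liver RNA of 10 Old and 8 Young mice was sequenced after ribosomal RNA depletion, with RNA from either of 2 kits, per the labels' protocols. The authors deposited TPM, reads per gene length scaled to a fixed sum per library. STAR 2.7.9a, Subread and featureCounts, with GRCm39 and mm10, are named per the submitters' processing notes without a role for each; gene lengths and strand setting are not given in any source used here, so overlapping and antisense genes are uncertain. The ratios between a gene's deposited TPM values in different libraries gave whole reads for 18946 of 18946 genes (largest distance from a whole number 2.2e-08). Same-age libraries differed beyond sampling noise in all 73 pairs (lowest chi-square per degree of freedom 39.8).

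TPM was divided by library factors from a trimmed mean of log ratios (30% of ratios and 5% of levels trimmed at each end), and log2(scaled TPM + 0.5) was fitted with limma 3.58.1 in R 4.3.3 with a variance trend, age and kit as terms. The test covered the 13895 genes that reached 0.5 TPM in 8 or more libraries, with Benjamini-Hochberg adjustment over all of them. The scale understates changes of low genes. The same model gave the kit difference, the age by kit interaction and slopes on 3 labelled traits. The procedures were checked on simulated data. Python 3.11.15, numpy 2.4.6, pandas 2.3.3, scipy 1.17.1 and matplotlib 3.10.9 were used elsewhere.

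The 9 genes and all lists were chosen with earlier results of these data known. Named besides the 9 were each list's called genes, or the 2 with the smallest p where none was called, and the 3 genes most like each factor, except that 1 list and its called gene are not reported here; Tat and Sgk1, called without Old replicate 14, were added after their values were seen. Alternatives covered kit, scaling, filter, pseudocount, limma-voom on recovered reads, library weights and each library left out. RNeasy libraries without Old replicate 14 were added as an alternative after seeing the data.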

Additional observations from a re-analysis of the deposited data

Results flagged for a closer look

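Of 18 sets of values (9 factors in each age), 5 held a library far from the others of its age. Chance gives about 5% of independent sets, but these sets share the same livers, so no excess is read from the count. Old replicate 14 accounted for 4 of the 5. It was the highest Old liver for Klf6 (21.1 scaled TPM) and for Klf10 (43.6), and the lowest for Klf9 (27.0) and for Klf15 (10.6). Young replicate 1 was the lowest Young liver for Klf9 at 62.1, and it is the liver that set the gap of Klf9 between the ages. The log2 folds of Old over Young without Old replicate 14 were 0.55 for Klf6, 0.42 for Klf10, -0.52 for Klf9 and -0.27 for Klf15. Why these livers stood apart was not tested.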

How the results depend on the processing

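The number of genes called by age changed with the processing. Against 350 higher and 328 lower genes, AllPrep libraries alone gave 109 and 54, RNeasy libraries alone 7 and 7, RNeasy libraries without Old replicate 14 gave 33 and 29, and library weights 729 and 668. With no composition factor there were 341 higher and 188 lower genes. Leaving out 1 library gave 188 to 550 higher and 180 to 455 lower genes. Counts moved by over 1.5 times without Young replicates 1 (189 higher, 197 lower), 2 (204, 180), 4 (231, 199), 10 (188, 183), 11 (222, 192) and 12 (228, 202) and Old replicates 9 (215, 200) and 15 (213, 195), without Young replicate 13 (232) and Old replicate 14 (550) for higher genes only, and without Old replicate 7 (209) for lower genes only. The interaction gave 0 to 3 genes when 1 library was left out, with 3 without Old replicate 14, and the kit 2019 to 3245. Fits within a kit hold fewer samples; the cause of the other changes was not tested. Of 270 log2 folds of the 9 factors by age under all alternatives, 10 lost a call, 0 gained one and 6 changed sign without a call. Of 972 of their values in the other comparisons, 8 lost a call, 1 gained one and 48 changed sign without a call. Depth was no limit on the levels, at 253 reads or more. No paired analysis was possible because no replicate number occurs in both ages.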
